A study of Mus musculus with 2 samples.

Results

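The cadherins and the non-clustered protocadherins, with the catenins that join classical cadherins to the actin cytoskeleton, were measured in embryonic mouse midbrain. The members were the protein-coding genes whose symbols carry the names Cdh, Pcdh followed by a number, Celsr, Fat, Dchs or Ctnna, Ctnnb and Ctnnd, together with Jup. This took 51 of the 43346 genes in the deposited tables. The rule used symbols and no measured value, though earlier results of these data were known when it was set. Clustered protocadherins and desmosomal cadherins were not among them. Total RNA of midbrain came from B6NCrl embryos at embryonic day 11.5, with no treatment and no second genotype, so there was 1 group. The midbrains of 109 embryos went into replicate 1 and those of 88 into replicate 2, and male and female embryos were mixed in both. The labels call both samples biological replicates.

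Cadherins are adhesion proteins whose extracellular repeats bind calcium and, in most classical members, bind the same cadherin on a neighbouring cell. The tails of type I and type II cadherins hold beta catenin, or its relative plakoglobin, and delta catenin. Beta catenin in turn holds alpha catenin, which binds actin, and it also acts in the nucleus as the effector of Wnt signalling. In the neural tube N-cadherin junctions ring the apical ends of neuroepithelial cells, type II cadherins and delta protocadherins mark subdivisions of the brain, and the large Celsr, Fat and Dachsous cadherins act in planar cell polarity.

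Depth was 41760197 and 49256468 expected counts in replicates 1 and 2. On the counts that fell on genes, 3 counts equal 0.0772 and 0.0653 CPM (counts scaled to library size), the limit that a count of 0 allows. Levels are in TPM, a measure of transcript abundance scaled so that each library has the same total, and corrected for transcript length, so that genes can be compared. ERCC spike-ins held 15.2% and 14.8% of the TPM. Of 7 midbrain markers 7 reached 1 TPM in both libraries, led by Otx2 at 169.43 and 171.27 TPM. The tissue was not neural cells alone, since 9 of 9 endothelial, 8 of 8 mesenchymal and 4 of 4 erythroid markers reached 1 TPM too. In such bulk tissue fewer cells of a type and less RNA per cell cannot be told apart.

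A gene was called detected at 1 TPM or more in both libraries. This held for 36 of the 51 members, or 70.6%, beside 58.2% of the 21474 protein-coding genes. The median of the members' mean levels was 4.62 TPM, against 3.455 TPM over the protein-coding genes. Members spanned the scale, from beta catenin at 626.4 and 615.54 TPM to Cdh16, a kidney cadherin with 0 counts in both libraries. Just inside the threshold lay Cdh3 (P-cadherin) at 1.11 and 1.03 TPM, and just outside it Pcdh20 at 1.09 and 0.75 TPM. With the detected members in order of level, the deposited intervals were apart in both libraries for 10 of the 35 neighbouring pairs. The other 25 neighbours did not differ beyond their intervals, and from Cdh8 down to Pcdh1 no neighbours were apart. For Ctnnb1, Cdh2 and Ctnna1 in both libraries, and for Cdh11 in 1, the TPM lay just outside its own interval, which held the deposited posterior mean.

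**Figure D1:**
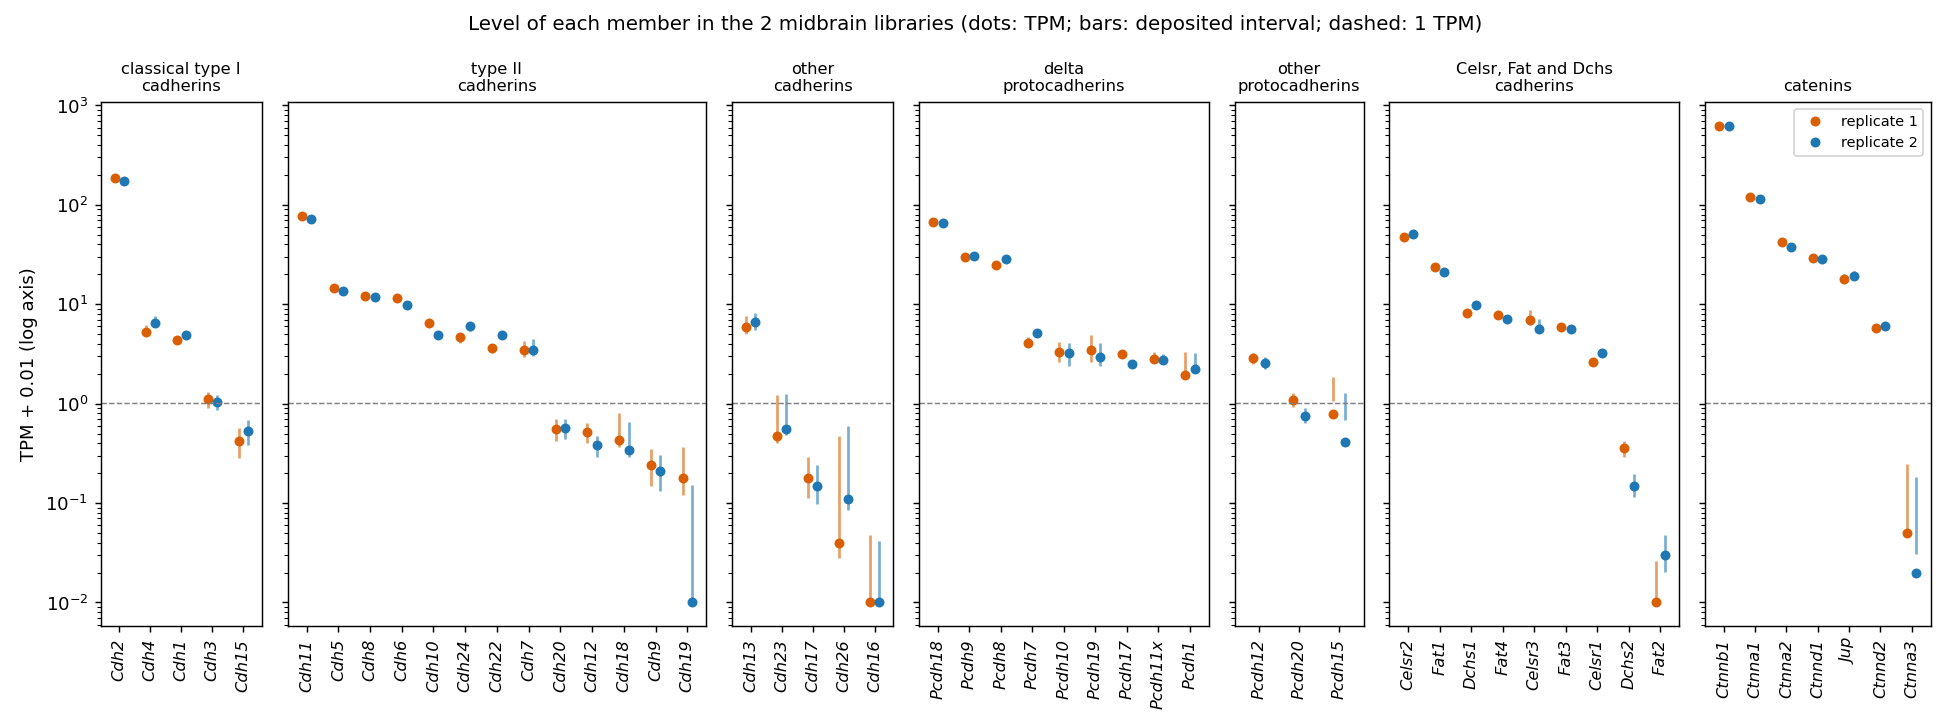
TPM of each of the 51 members on a log axis after adding 0.01, by class, with replicate 1 and replicate 2 side by side and the deposited interval as a bar. Catenins and Cdh2 hold the top of the scale, the 9 delta protocadherins all sit above the dashed line at 1 TPM, and other cadherins except Cdh13 sit below it.

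The catenins were the class with the highest median level, 29.04 TPM, and 6 of the 7 were detected. Ctnnb1 (chr9:120929216-120960507, plus strand, mm10) encodes beta catenin and made up 43.8% and 44.2% of the summed TPM of the members. Jup encodes plakoglobin, also called gamma catenin, and had 17.79 and 19.22 TPM. Jup was thus 33.4-fold below Ctnnb1, a log2 ratio of Jup to Ctnnb1 of -5.06 ± 0.10 (SD, n = 2), with intervals apart in both libraries. Of the alpha catenins, Ctnna1 (alphaE) had 118.79 and 113.37 TPM and Ctnna2 (alphaN, the neural form) had 42.33 and 37.98 TPM. Ctnna1 exceeded Ctnna2 by 2.89-fold. Ctnna3, the alphaT catenin best known from heart and testis, had 3 and 1 counts, within the range that a count of 0 allows. Ctnnd1 was 4.84-fold above its neural relative Ctnnd2, with 29.48 and 28.59 TPM for Ctnnd1 and 5.78 and 6.07 TPM for Ctnnd2.

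Folds between members are on TPM + 0.1 throughout, the 0.1 being added to keep genes near 0 on the scale. Summed levels put cadherins and catenins on a common scale. The sums pool all cell types of the tissue, with Cdh5 and Cdh11 included, so they do not describe the partners of one junction. Type I and type II cadherins together came to 334.95 TPM in replicate 1 and 314.69 TPM in replicate 2. For each TPM of these cadherins there were 1.92 and 2.02 TPM of beta and gamma catenin. The alpha catenins came to 0.481 TPM per cadherin TPM in both libraries. The delta catenins among the members, Ctnnd1 and Ctnnd2, were lower, at 0.105 and 0.110. That sum leaves out their relatives outside the members, such as Arvcf at 48.3 and 50.25 TPM, so it is not the whole delta catenin family. These are ratios of RNA levels and say nothing of protein.

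Alternative coding segments of the catenins are shown because their use sets apart forms of the same protein, and the levels of the forms could be read for each. Optional segments were found from the exon structure of the annotated transcripts, and a share is the TPM of transcripts with the segment over the TPM of transcripts that span it with or without it. Capitals mark the segment and lower case the neighbouring bases of the spliced transcript, 12 on each side. The Ctnna2 segment is a cassette exon of 144 bases, or 48 codons, at chr6:76902287-76902430 on the minus strand of mm10. It is the insert that tells the longer alphaN catenin from the shorter. The 3 Ctnnd1 segments, known in the literature as exons C, A and B from 5′ to 3′, lie on the minus strand at chr2:84612532-84612549, chr2:84605184-84605246 and chr2:84603188-84603274. They hold 6, 21 and 29 codons, and each length keeps the reading frame.

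Ctnna2 insert: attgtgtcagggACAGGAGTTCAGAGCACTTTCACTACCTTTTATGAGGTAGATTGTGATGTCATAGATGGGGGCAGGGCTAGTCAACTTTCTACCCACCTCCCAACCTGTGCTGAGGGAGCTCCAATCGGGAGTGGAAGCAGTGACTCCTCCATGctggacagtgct
Ctnnd1 exon C: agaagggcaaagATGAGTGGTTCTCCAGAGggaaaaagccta
Ctnnd1 exon A: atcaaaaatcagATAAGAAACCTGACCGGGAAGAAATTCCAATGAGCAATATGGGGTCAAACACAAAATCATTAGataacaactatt
Ctnnd1 exon B: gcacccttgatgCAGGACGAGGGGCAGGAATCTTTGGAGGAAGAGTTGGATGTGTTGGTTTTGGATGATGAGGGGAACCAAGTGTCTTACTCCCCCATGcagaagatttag

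Transcripts with the Ctnna2 insert held 24.69 and 20.87 TPM, against 13.66 and 12.99 TPM for transcripts without it, a share of 63.0% ± 1.94 (SD, n = 2). For the 6 codons of Ctnnd1 exon C, which lie in the armadillo repeats, the share with the exon was 59.7% in replicate 1 and 55.1% in replicate 2. Exon A was in 52.0% and 53.5% of the TPM. The insert and both of these exons were therefore present and absent in sizeable parts of the RNA in each library. Exon B stood apart, since transcripts with it were listed at 0 TPM in both libraries, against 26.48 and 24.53 TPM without it. These shares rest on the authors' division of reads among transcripts, and no reads over single junctions were at hand.

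**Figure D2:**
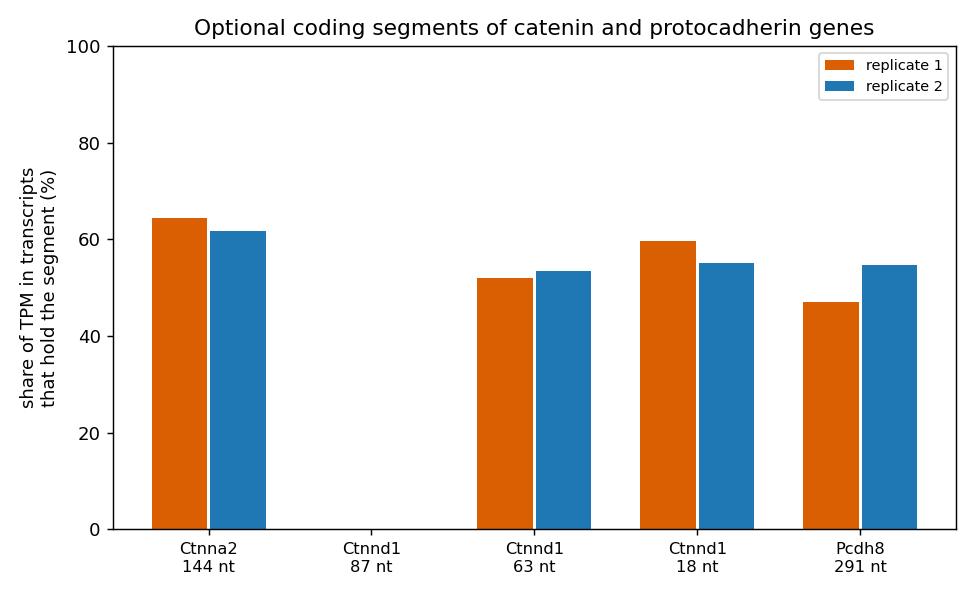
Share of TPM, in percent, in transcripts that hold each optional coding segment, with a bar for each replicate. The Ctnna2 insert, Ctnnd1 exons A (63 nt) and C (18 nt) and the Pcdh8 segment lie between 47.1% and 64.4%, while Ctnnd1 exon B (87 nt) is at 0 in both.

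Among classical type I cadherins, 4 of 5 were detected and 1 gene held most of the RNA. Cdh2, or N-cadherin, the cadherin of the neuroepithelium, had 187.56 TPM in replicate 1 and 173.74 TPM in replicate 2. That was 56.0% and 55.2% of the summed level of the type I and type II cadherins. Cdh4 (R-cadherin) followed at 5.2 and 6.51 TPM, and Cdh2 was 30.5-fold above it. Cdh1, the E-cadherin of epithelia, had 4.34 and 4.95 TPM, and Cdh2 was 38.1-fold above it (log2 ratio 5.25 ± 0.21, SD, n = 2). Cdh1 in turn was 4.05-fold above Cdh3. Cdh15, the M-cadherin of muscle, had 0.41 and 0.52 TPM and was not detected. Of 6 skeletal muscle markers 2 were detected, with summed levels of 8.36 and 7.25 TPM, while Myod1 and Myog had 4 and 1 counts in replicate 1 and 0 in replicate 2. Of 8 surface epithelium markers 5 were detected, with summed levels of 23.26 and 23.53 TPM and none at 0. The part of such cells in the Cdh1, Cdh3 and Cdh15 levels was not tested.

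Ctnnb1 was also 3.44-fold above Cdh2 and 5.35-fold above Ctnna1. Both Ctnnb1 and Cdh2 were read mainly from 2 transcripts each. Of the Ctnnb1 level 58.6% ± 1.13 fell on a transcript of 3422 bases and 36.6% ± 2.57 on one of 3623 bases (SD, n = 2). A Cdh2 transcript of 3785 bases held 64.7% and 63.1% of its gene, and one of 4843 bases held 29.7% and 31.2%.

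Type II cadherins, which are expressed in restricted neuronal groups and in mesenchyme, gave 8 detected members of 13 with a median of 4.28 TPM. Cdh11, known from mesenchyme and neural tissue, led with 77.94 and 71.7 TPM and held 23.3% and 22.8% of the type I and type II total. It was 6.93-fold above Cdh6, which marks subdivisions of the neural tube and had 11.61 and 9.85 TPM. Cdh8, a synaptic type II cadherin, had 12.24 and 11.93 TPM. Cdh6 and Cdh8 could not be placed in order, since their intervals were apart in 1 library only. Cdh8 was 3.41-fold above Cdh7, and Cdh7 was 5.45-fold above Cdh20, a close relative that was not detected at 0.55 and 0.56 TPM. The log2 ratio of Cdh20 to Cdh7 was -2.45, and -1.52 with 1 TPM added. Cdh10 had 6.41 and 4.94 TPM and exceeded Cdh9, at 0.23 and 0.2 TPM, by 18.2-fold, a log2 ratio of 4.19 that ran from 2.45 with 1 TPM added to 4.65 with 0.01 TPM added. Cdh24 and Cdh22 lay close together, with 4.64 and 5.97 TPM for Cdh24 and 3.66 and 4.89 TPM for Cdh22, yet the intervals were apart in both libraries (1.24-fold). Cdh12 and Cdh18 were both below 1 TPM and were not separated.

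Several type II cadherins mark cells outside the neuroepithelium. Cdh5, the VE-cadherin of endothelial junctions, had 14.5 and 13.71 TPM, in the range of the endothelial markers, whose levels ran from 7.12 TPM for Tie1 to 42.62 TPM for Egfl7 on average and summed to 159.63 and 166.69 TPM. Cdh5 was 3.0-fold above Cdh1. The mesenchymal markers, 8 of 8 detected with none at 0, summed to 727.92 and 693.66 TPM, and their part in the Cdh11 level was not tested. Cdh19, which marks neural crest derivatives and Schwann cell precursors, had 17 counts in replicate 1 and 0 in replicate 2. Of the markers of those cells, Sox10 was at 0.73 and 0.49 TPM, with 51 and 41 counts, and Foxd3 had 5 and 3 counts. Neither of these 2 was at 0 in replicate 2, where Cdh19 was.

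Of the 5 other cadherins 1 was detected. Cdh13, or T-cadherin, is held in the membrane by a lipid anchor without a cytoplasmic tail, and it had 5.93 and 6.63 TPM. Cdh17, known from liver and intestine, had 15 counts in each library, at 0.17 and 0.14 TPM. Cdh26 had 2 and 9 counts. Cdh23 and Pcdh15 together form the tip links of inner ear hair cells, and neither was detected, with 0.46 and 0.55 TPM for Cdh23 and 0.77 and 0.4 TPM for Pcdh15. Of 4 hair cell markers 2 were detected, Myo7a and Ush1c, both of which are expressed in other cells too. The hair cell markers Pou4f3 and Otof had 27 and 34 counts in replicate 1 and 8 and 98 counts in replicate 2. For Pcdh15 the TPM lay outside its own interval in both libraries, and its level is uncertain for that reason.

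Delta protocadherins are relatives of the clustered protocadherins whose genes lie apart from the clusters, and they are expressed in zones of the developing brain. They were detected throughout, 9 of 9, with a range of 2.08 to 66.19 TPM and a median of 3.26 TPM. In the delta-2 subgroup, whose tails recruit the WAVE actin regulator, Pcdh18 had 67.02 and 65.35 TPM and Pcdh8 (arcadlin) had 25 and 28.75 TPM. Pcdh18 was 19.8-fold and Pcdh8 8.02-fold above Pcdh10, which had 3.31 and 3.2 TPM. Pcdh17 had 3.16 and 2.51 TPM, and Pcdh19, the gene of an X-linked epilepsy, had 3.42 and 2.92 TPM. The intervals of Pcdh17 and of Pcdh19 overlapped that of Pcdh10, so the subgroup fell into a high pair and a low trio. In the delta-1 subgroup Pcdh9 led with 29.94 and 30.93 TPM, 6.51-fold above Pcdh7 and 10.5-fold above Pcdh11x. Pcdh7 had 4.09 and 5.15 TPM and was 2.16-fold above Pcdh1, at 1.93 and 2.23 TPM.

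An optional segment of Pcdh8 is shown because its forms were close to equal in level and the leading transcript differed between the libraries. The 291 bases, or 97 codons, lie within an exon at chr14:79768497-79768787 on the minus strand of mm10, and 76.6% of them are G or C. Capitals mark the segment and lower case 4 bases on each side.

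Pcdh8 segment: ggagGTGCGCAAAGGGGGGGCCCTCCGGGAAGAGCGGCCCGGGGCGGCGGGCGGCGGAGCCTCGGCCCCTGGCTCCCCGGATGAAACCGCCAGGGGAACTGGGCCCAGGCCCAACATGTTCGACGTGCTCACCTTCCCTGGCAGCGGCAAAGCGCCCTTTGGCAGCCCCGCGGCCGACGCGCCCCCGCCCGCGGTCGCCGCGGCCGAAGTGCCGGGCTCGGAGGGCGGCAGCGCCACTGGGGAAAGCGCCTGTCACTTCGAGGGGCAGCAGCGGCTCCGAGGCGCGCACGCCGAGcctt

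Transcripts with the Pcdh8 segment held 11.37 TPM in replicate 1 and 15.14 TPM in replicate 2, against 12.76 and 12.55 TPM without it. The share with the segment was 50.9% ± 5.34 (SD, n = 2), the widest spread of the segments shown. By contrast Pcdh18 was read mainly from 1 transcript of 5168 bases, at 85.0% and 85.5% of the gene.

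Of 3 other protocadherins 1 was detected. Pcdh12, a protocadherin of endothelium, had 2.9 and 2.58 TPM, of which 69.2% and 74.2% lay in retained-intron transcripts. Its coding transcripts were at 0.59 and 0.31 TPM in replicate 1 and at 0.67 and 0 TPM in replicate 2, so on coding transcripts it would not be called detected. Pcdh20 had 150 and 123 counts and passed 1 TPM in replicate 1 only.

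The Celsr, Fat and Dachsous cadherins gave 7 detected members of 9, with a median of 6.27 TPM. Celsr proteins join across cell borders in planar polarity. Celsr2 had 47.72 and 50.72 TPM, 16.4-fold above Celsr1 and 7.78-fold above Celsr3. Celsr3, which guides axon tracts, had 6.87 and 5.66 TPM and was 2.11-fold above Celsr1 at 2.62 and 3.21 TPM. Among the Fat cadherins the order was Fat1, Fat4 and Fat3, with 23.68 and 21.2 TPM for Fat1, 7.85 and 7.14 TPM for Fat4 and 5.83 and 5.59 TPM for Fat3. Fat1 was 2.97-fold above Fat4, and Fat4 was 1.31-fold above Fat3. Fat2, known from cerebellar granule cells, had 1 and 9 counts. Dchs1 is the ligand of Fat4, and the intervals of the 2 genes were not apart in both libraries, with 8.24 and 9.83 TPM for Dchs1. Dchs1 was 27.7-fold above Dchs2, at 0.35 and 0.14 TPM, a log2 ratio of 4.79 ± 0.82 (SD, n = 2) with the widest spread of the 34. That ratio was 3.01 with 1 TPM added and 5.37 in replicate 2 alone. Fat1, Celsr2 and Celsr3 were divided among transcripts of very different length. A Fat1 transcript of 4770 bases held 56.7% and 58.1% of the gene, and one of 14814 bases held 32.6% and 35.4%. The leading Celsr2 transcript, of 10598 bases, held 39.4% and 38.2%, or 18.78 and 19.38 TPM. A Celsr3 transcript of 722 bases held 31.62% and 23.25% of its gene, and one of 11547 bases had 3.85 and 3.36 TPM. All of Celsr1 fell on 1 transcript of 11050 bases. The folds above are of whole genes, and on these long transcripts alone Celsr2 and Celsr3 lay closer to Celsr1. The Fat1 transcript of 14814 bases had 7.71 and 7.5 TPM, against 7.32 and 6.67 TPM for the Fat4 transcript of 16109 bases.

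Over 34 pairs of members compared, the intervals were apart in the same direction in both libraries for 29. The first gene was higher in 17 of these and the second in 12, which depends only on the order in which each pair was written. The pairs were chosen with earlier results of these data known, so these counts describe the chosen pairs and not members at large. Of the 28 pairs with both members detected, 24 were apart. The 5 that were not were Cdh6 and Cdh8, Cdh12 and Cdh18, Pcdh17 and Pcdh10, Pcdh19 and Pcdh10, and Fat4 and Dchs1. An exact sign-flip test over 2 libraries has 0.5 as its smallest p, and none was run.

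**Figure D3:**
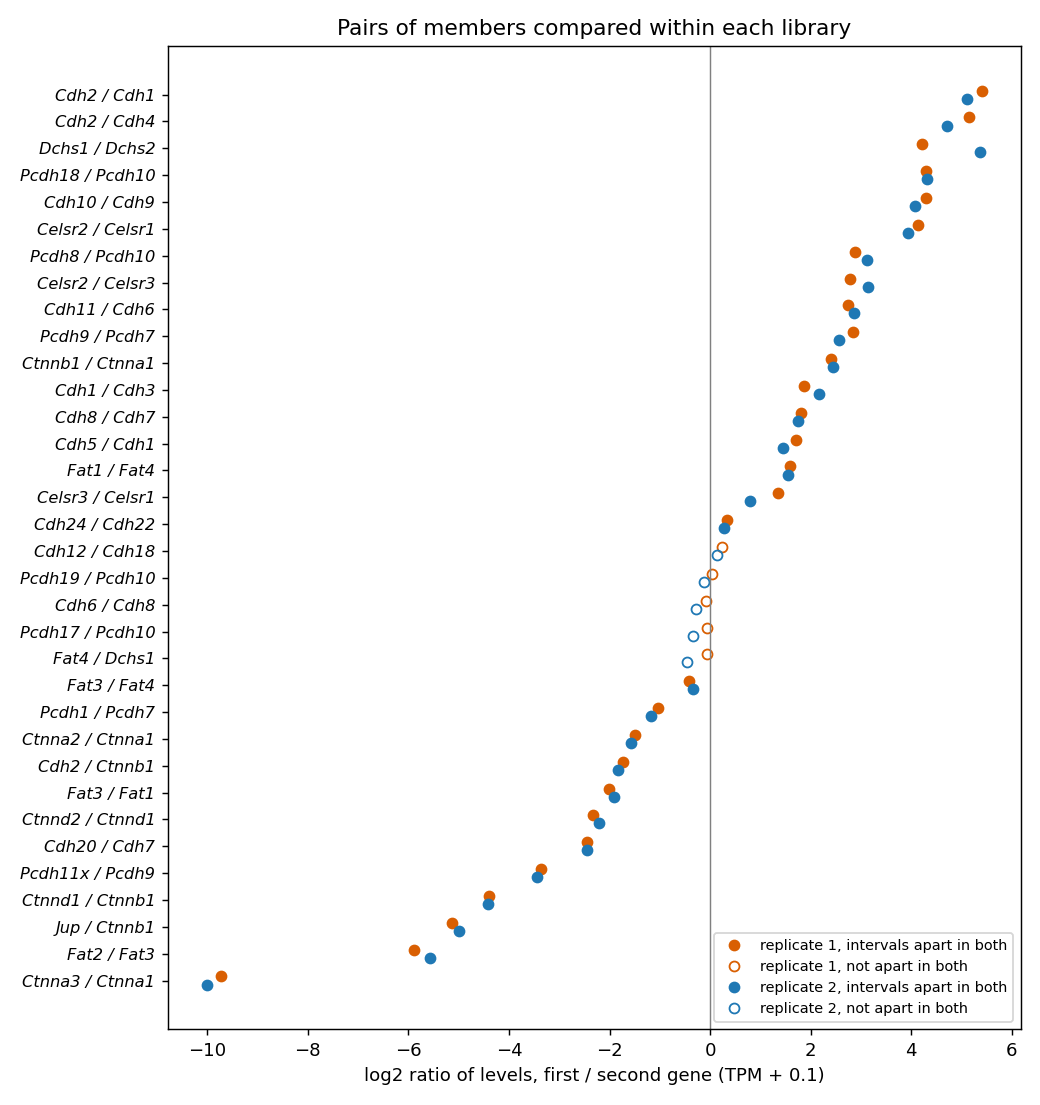
The log2 ratio of the first to the second gene of each of 34 pairs, on TPM + 0.1, with a dot for each replicate. Filled dots are pairs with intervals apart in both libraries, and the 5 open pairs lie near 0; the lowest pair involves Ctnna3, at 3 and 1 counts, and its ratio depends on the amount added.

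Other genes of cadherin adhesion and polarity were listed by role, and 40 of these 47 were detected. Of 13 junction linkers and nectins 12 were detected, led by Actn4, an actin crosslinker, at 102.76 and 99.23 TPM, Afdn, which ties nectins to actin, at 88.46 and 94.05 TPM, and Arvcf, a delta catenin relative, at 48.3 and 50.25 TPM. The WAVE complex had 5 of 5, with Brk1 at 170.83 and 179.27 TPM. Cadherin processing genes had 6 of 6. Among these were the gamma-secretase gene Ncstn at 82.08 and 82.96 TPM and the sheddase gene Adam10 at 53.97 and 49.21 TPM. Planar polarity partners had 11 of 12, with Fzd3 at 47.66 and 44.75 TPM and Vangl2 at 36.44 and 39.54 TPM. Repressors of Cdh1 had 5 of 5, with Zeb2 at 50.08 and 45.81 TPM, Zeb1 at 36.96 and 37.22 TPM and Snai1 at 14.06 and 16.02 TPM. Desmosome genes were the low list, with 1 of 6 detected, Pkp2 at 3.16 and 4.22 TPM, while Dsc2 and Pkp3 averaged 0.965 and 0.94 TPM.

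The members lie on 15 chromosomes, and 9 neighbouring pairs of members had no protein-coding gene between them. On chromosome 15 the type II genes Cdh6, Cdh9, Cdh10, Cdh12 and Cdh18 follow each other in this way. Their mean levels in this order were 10.73, 0.215, 5.68, 0.44 and 0.375 TPM, so the detected Cdh6 and Cdh10 lie on either side of Cdh9, and the undetected Cdh12 and Cdh18 follow. On chromosome 8, Cdh8, Cdh11 and Cdh5 follow each other at 12.09, 74.82 and 14.11 TPM. Cdh3 and Cdh1 lie 46.1 kb apart on that chromosome with 1 coding gene between them. On chromosome 14 Pcdh9, at 30.44 TPM on average, has as its neighbour Pcdh20, at 0.92 TPM. Detected and undetected members thus followed each other in gene order on both chromosomes 14 and 15, though far apart. The gap was 4542 kb between Pcdh20 and Pcdh9. It was 3555 kb from Cdh6 to Cdh9, 1962 kb from Cdh9 to Cdh10 and 1435 kb from Cdh10 to Cdh12.

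**Figure D4:**
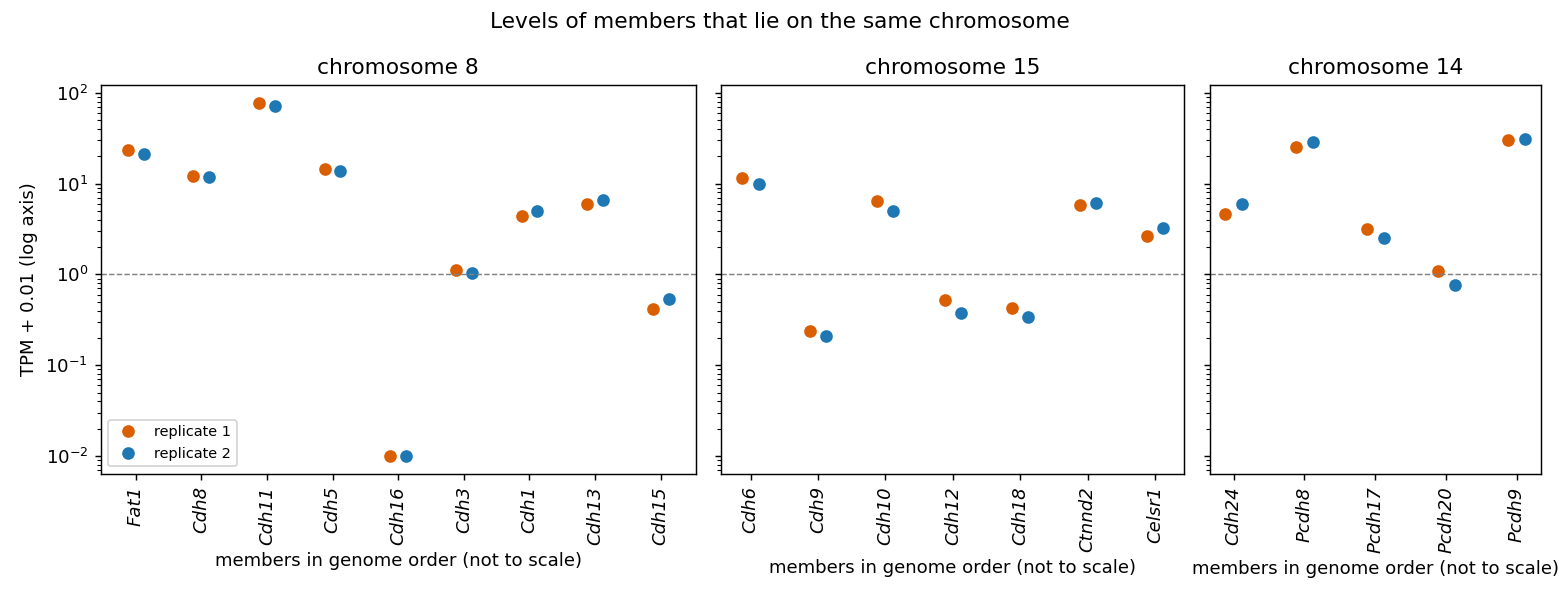
TPM of members on chromosomes 8, 15 and 14 in genome order, on a log axis after adding 0.01, with a dot for each replicate and a dashed line at 1 TPM. On chromosome 15 Cdh6 and Cdh10 lie above the line and Cdh9, Cdh12 and Cdh18 below it.

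RefSeq promoter sequences (build GRCm38.p6, 250 bases before to 50 after the start) were at hand for 35 of the 51 members. The motif CG, which reads the same on both strands, was counted in these 300 bases. Where a gene had several promoters listed, the one with the most CG was used, for members and for all genes. The counts are thus the highest of each gene and can rise with the number of promoters listed. The median was 23 CG in the 23 detected members, with a range of 2 to 51. It was 8 in the 12 undetected members, with a range of 4 to 39, and 8 over the promoters of 27025 genes, of which 94.6% held at least 1. The ranges overlapped widely, and the count is a description with no test. Some windows in both groups lie away from the gene's 5′ end, so the 2 medians do not compare 5′ ends alone. The promoters of Ctnnb1 (chr9:120933328-120933627, plus strand) and Ctnna3 (chr10:63429848-63430147, plus strand) are shown as the member with the highest level and an undetected member with a like promoter. Capitals mark each CG.

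Ctnnb1 promoter: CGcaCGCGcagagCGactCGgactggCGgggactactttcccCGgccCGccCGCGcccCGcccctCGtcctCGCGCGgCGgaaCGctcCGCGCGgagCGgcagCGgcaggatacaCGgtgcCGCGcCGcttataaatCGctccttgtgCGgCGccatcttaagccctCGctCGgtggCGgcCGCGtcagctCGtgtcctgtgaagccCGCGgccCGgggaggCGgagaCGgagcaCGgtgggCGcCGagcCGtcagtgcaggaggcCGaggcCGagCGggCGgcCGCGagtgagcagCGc
Ctnna3 promoter: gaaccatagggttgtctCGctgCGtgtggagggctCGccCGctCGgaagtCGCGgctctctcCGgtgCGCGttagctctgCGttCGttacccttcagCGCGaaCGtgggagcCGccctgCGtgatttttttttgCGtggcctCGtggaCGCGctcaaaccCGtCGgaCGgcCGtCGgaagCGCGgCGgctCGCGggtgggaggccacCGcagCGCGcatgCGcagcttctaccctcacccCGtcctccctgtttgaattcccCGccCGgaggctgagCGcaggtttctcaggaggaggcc

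Ctnnb1 had 51 CG and 620.97 TPM on average, and Ctnna3 had 39 CG and 0.025 TPM. Fat1 and Cdh10 were the opposite cases among detected members, with 2 CG each and 22.44 and 5.68 TPM on average. The windows of Fat1, Cdh10 and Ctnnb1 lie inside the gene, downstream of its annotated start. So do those of some other members, among them the undetected Pcdh15, Cdh12, Cdh18 and Fat2, which enter the median of the undetected members. For Pcdh15 the window begins at chr10:73821617 and the gene at chr10:73099342. For Fat1 the window begins at chr8:44949958 and the gene at chr8:44935447, so the 2 CG do not describe the gene's 5′ end. Cdh6 and Cdh9, neighbours on chromosome 15, had 8 CG each.

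Replicate 2 was set against replicate 1 gene by gene, by an exact binomial test (two-sided) of the counts, adjusted by Benjamini and Hochberg over the 17148 genes that had 20 counts or more in the libraries together. Genes past an adjusted p of 0.05 and a 2-fold difference were called. This compares 2 libraries and not 2 conditions. Of 46 members tested 1 was called, beside 2.94% of all genes tested, and it was lower in replicate 2, beside 1.56% lower and 1.38% higher. The called member was Dchs2, with 49.56 counts in replicate 2 and 99.94 in replicate 1, a log2 ratio of -1.23 and an adjusted p of 3.08e-06 in the exact binomial test. Its intervals did not overlap, and its level was under 1 TPM in both. None of the 36 detected members reached a 2-fold difference. Among them the ratio was highest for Cdh22, Cdh24 and Cdh4, at 0.42, 0.38 and 0.32 on the log2 scale. It was lowest for Pcdh10, Cdh10 and Pcdh17, at -0.43, -0.36 and -0.32. These ratios are of counts, with no correction for transcript length. In TPM Pcdh10 had 3.31 and 3.2, with overlapping intervals. The 5 members with fewer counts (Cdh16, Cdh19, Cdh26, Ctnna3 and Fat2) were not tested. The median log2 ratio was -0.06 over the members tested and 0.01 over all genes tested.

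Without the fold minimum 26 members passed, 11 higher and 15 lower in replicate 2, beside 35.5% of all genes, 18.3% higher and 17.2% lower. The deposited intervals of the 2 libraries did not overlap for 16 of the 36 detected members, 7 higher and 9 lower in replicate 2, beside 22.4% of genes at 1 TPM, 11.1% higher and 11.4% lower. The exact test counts reads of amplified cDNA as independent, and small differences in members with many reads pass it. Cdh2, for example, had 22203 counts in replicate 2 and 19959 in replicate 1, a log2 ratio of -0.09 with an adjusted p of 5.24e-10 in the exact binomial test. The median absolute log2 ratio was 0.176 over the members tested and 0.139 over all genes tested. Why members passed more often than all genes was not tested. Of 46 partner genes tested 0 were called at the 2-fold minimum.

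**Figure D5:**
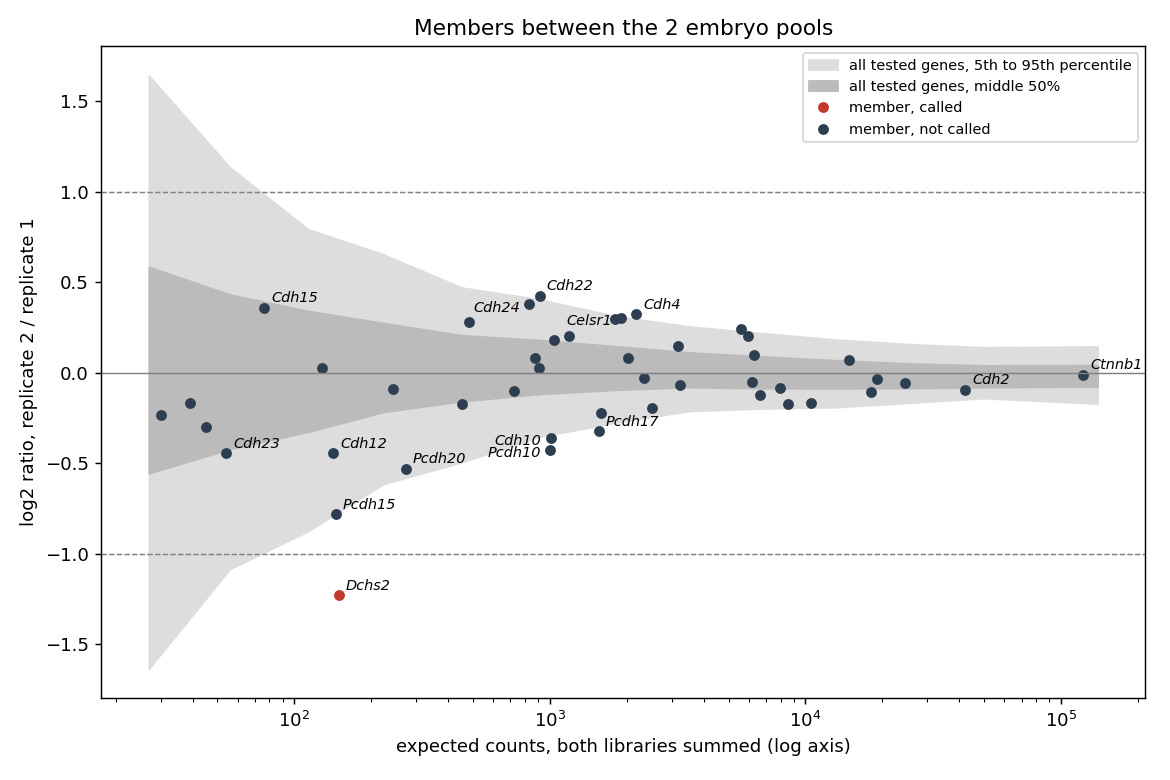
The log2 ratio of replicate 2 to replicate 1 for the 46 members tested, against their summed expected counts on a log axis, over the middle 50% and the 5th to 95th percentile of all tested genes. Dchs2, in red, is past the dashed line at -1, and the other members lie between the dashed lines.

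Of 26 detected members with 2 or more transcripts, 21 had the same leading transcript in both libraries, or 80.8%, beside 91.4% of such genes at 1 TPM. The 5 whose leading transcript differed were Pcdh8, Cdh8, Pcdh7, Pcdh10 and Pcdh19. With a lead of at least 10 percentage points in both libraries, 19 of 20 kept it. Exons of 15 members overlap those of another gene, and for 3 of them that gene reached 1 TPM on the opposite strand. These were Ulk4 over Ctnnb1 at 3.09 and 3.53 TPM, Lrrtm2 over Ctnna1 at 1.98 and 1.34 TPM, and C230034O21Rik over Fat4 at 1.45 and 1.09 TPM. The sources used here do not say whether strand was used in counting, so reads in these overlaps are uncertain.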

How the data were processed

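Both libraries of the single group were used. Per the labels, RNA was extracted with Ambion mirVana, each library was made from 10 ng of the long RNA fraction with ERCC spike-ins, and the protocol cited is Smart-seq. The accompanying notes name assembly mm10 and annotation M4. Aligner and quantifier: not given in the sources used here. Expected counts, TPM and FPKM of genes and transcripts are the authors' deposited values, per the file headers, with TPM and FPKM scaled over all rows with spike-ins included, which lowers each gene's TPM alike. The authors also deposited interval bounds, treated as a signal whose level is not given, and for transcripts the percent of the gene. Reads of amplified cDNA are not independent molecules, so limits and intervals cover counting error only.

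Members were found by symbol in GENCODE M21, which has the same assembly and gave the coordinates (1-based). The members, pairs, classes and lists were chosen with earlier results of these data known. All members may be named, with the 3 highest genes of each other list, of which some are not reported here, and other marker genes were named to show their values beside a member. Pairs used TPM + 0.1. Rounded counts with TMM-scaled library sizes (edgeR 4.0.16, R 4.3.3) entered the exact binomial test, and log2 ratios used a prior count of 1. The quasi-likelihood test was not run, because 1 library per pool leaves no residual degrees of freedom. The binomial test was tested on data simulated with counting error only. Such data lack the extra spread of amplified cDNA, so this does not show how often the test errs on these libraries. Optional segments were sought in members at 5 TPM or more on average, in transcripts whose deposited length matched M21. Alternatives were size factors of DESeq2 1.42.0, scaling by totals or spike-ins, other filters, pseudocounts and units, and leaving out each library. Python 3.11.15, numpy 2.4.6, pandas 2.3.3, scipy 1.17.1 and matplotlib 3.10.9 were used.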

Additional observations from a re-analysis of the deposited data

How the results depend on the processing

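The counts of detected members (34 to 38), detected partner genes (40 to 43) and separated pairs (24 to 31) stayed within 1.5 times the reported 36, 40 and 29 under each alternative run. Leaving out replicate 1 or replicate 2 gave 36 or 37 members, 41 or 42 partner genes and 31 or 29 pairs. The number of members that differed between the libraries was 26 with no fold minimum. It was 2 with no minimum count, where Cdh19 joined Dchs2 with an adjusted p of 2.21e-05 in the exact binomial test; this exceeds the reported count of 1 because more genes are tested. DESeq2 size factors, total counts, spike-in totals, a summed count of at least 100 and an assumed coefficient of variation of 0.1 each gave 1, Dchs2. Spike-in scaling moved log2 ratios by 0.06 and turned the sign of 5 members, none of them Dchs2. At a minimum of 10 TPM, 9 of 11 members kept their leading transcript, a lower count because fewer members enter. Of 204 recomputed pair ratios 40 moved by more than the spread between libraries, and none of the 29 separated pairs changed direction. Of 28 recomputed class medians 14 moved, since the unit or scale changed. Ratios to genes near 0 depend on the pseudocount, from -11.84 to -6.84 on the log2 scale for Ctnna3 to Ctnna1. No paired analysis was possible because there is 1 group, so replicate numbers pair nothing. The comparison between libraries and the count of kept leading transcripts need both libraries and were not run with 1 left out. Depth limits the 5 members below 20 summed counts, which entered the test only with no minimum count.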

Other observations

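Part of the signal of several members came from transcripts annotated as non-coding (retained introns, processed transcripts and transcripts marked for decay). Over the 36 detected members the median share of such transcripts was 4.01% in replicate 1 and 3.31% in replicate 2, and 13 members had none in either. In 6 members it passed 20% in both libraries. Pcdh12, the endothelial protocadherin, had 69.2% and 74.2%, in retained-intron transcripts throughout. Celsr2 had 35.2% and 36.2%, of which retained introns made 16.3% and 17.1% of the gene. The other 4 were Cdh13, Pcdh19, Pcdh10 and Pcdh11x, whose shares differed more between the libraries, for example 20.1% and 40.1% for Pcdh10. For these genes the TPM of the gene is higher than that of its coding transcripts.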
